A study of Mus musculus with 2 samples.

Results

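A set of 8 genes of the major histocompatibility complex (MHC) pathway were followed through 2 single-cell RNA libraries of mouse retina. All 8 members were chosen by symbol and were found among the 32285 genes of the count table: H2-Aa, H2-Ab1, H2-Eb1 and Cd74 of class II, and H2-K1, H2-D1, B2m and Tap1 of class I. One library came from retinas of BKSDB mice, which are homozygous for the db mutation of the leptin receptor gene (C57BLKS-Leprdb/db) and serve as a model of type 2 diabetes. The other, the control, came from BKSWT mice (C57BLKS-Leprwt/wt, also described as m/m). Both libraries held retinas of 2 untreated mice aged 13 weeks, pooled before capture, so each genotype had 1 library. With a single library per genotype, no test was possible and the differences below were not checked in replicates. Intervals in brackets are exact 95% intervals that cover counting error only.

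Class II molecules carry peptides from the endocytic pathway to CD4+ T cells and are made mainly by professional antigen-presenting cells. An alpha and a beta chain pair in the endoplasmic reticulum with the invariant chain, and the promoters of all these genes share a regulatory module read by the RFX factors, NF-Y and the coactivator CIITA. Class I molecules carry peptides from the cytosol to CD8+ T cells on nearly all nucleated cells, with low levels in neurons, and interferons raise their transcription. In the retina, microglia and other macrophages are the resident cells best known for both classes. The C57BLKS strain carries the d haplotype of the H2 complex, whereas the reference genome is of the b haplotype. The effect of that difference on the counts of these polymorphic genes was not tested.

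Cells were assigned by marker genes, after removal of barcodes with few genes or with much mitochondrial RNA. Of 10963 kept db/db cells and 10230 kept wild-type cells, 58 and 60 passed the gate for microglia or macrophages and 116 and 212 the gate for Muller glia, the main glial cells of the retina. The neurons were 9419 and 8216 rods, 515 and 599 cones, 379 and 504 bipolar cells, and 13 and 67 amacrine cells. The matrices held 33742189 unique molecular identifiers (UMIs) in the db/db library and 35642274 in the wild-type library, and 26 barcodes occurred in both. Lepr itself had 6 UMIs in kept cells of each library, too few to check the genotype labels. The gate for microglia or macrophages drew on 18 markers, of which a median of 15.5 was seen per db/db cell and 13 per wild-type cell. Gated microglia or macrophages had a median of 4321 UMIs per cell in the db/db library and 2048 in the wild-type library. Rod markers made up a median of 1.28% and 1.18% of their UMIs. Levels are UMIs per 1000000 UMIs of the cell type (CPM). The libraries count 3' ends, 1 UMI per molecule, so values were not divided by gene length.

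Promoter sequence is shown for 4 members, 2 of class II and 2 of class I, with short motifs marked. The H2 genes and Tap1 lie on chromosome 17 and B2m on chromosome 2. H2-Aa (ENSMUSG00000036594) spans 34282744 to 34287823 on the minus strand, H2-Ab1 (ENSMUSG00000073421) 34257689 to 34269419 and H2-Eb1 (ENSMUSG00000060586) 34305867 to 34316674, both on the plus strand. H2-K1 (ENSMUSG00000061232) spans 33996017 to 34000347 on the minus strand, and H2-D1 (ENSMUSG00000073411) 35262730 to 35267499 on the plus strand. Each sequence is the 160 bases before the RefSeq start, 5′ to 3′ on the strand of the gene, in build GRCm38.p6. The windows are chr17:34287824-34287983, minus strand, for H2-Aa; chr17:34305707-34305866, plus strand, for H2-Eb1; chr17:34000348-34000507, minus strand, for H2-K1; and chr2:122147527-122147686, plus strand, for B2m. Capitals mark GCAAC and ATTGG, the cores of the X and Y boxes of class II promoters, in the first 2 sequences, and AANNGAAA, the core of the interferon response element, on either strand in the others.
H2-Aa: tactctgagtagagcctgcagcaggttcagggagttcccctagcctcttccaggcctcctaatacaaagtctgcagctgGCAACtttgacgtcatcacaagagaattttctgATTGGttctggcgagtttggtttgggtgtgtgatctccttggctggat
H2-Eb1: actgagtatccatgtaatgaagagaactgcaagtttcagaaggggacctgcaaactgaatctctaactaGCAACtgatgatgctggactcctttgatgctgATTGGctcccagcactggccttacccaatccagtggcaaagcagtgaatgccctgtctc
H2-K1: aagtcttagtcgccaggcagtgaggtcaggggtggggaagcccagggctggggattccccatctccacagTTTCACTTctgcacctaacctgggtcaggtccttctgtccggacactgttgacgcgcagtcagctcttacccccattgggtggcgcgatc
B2m: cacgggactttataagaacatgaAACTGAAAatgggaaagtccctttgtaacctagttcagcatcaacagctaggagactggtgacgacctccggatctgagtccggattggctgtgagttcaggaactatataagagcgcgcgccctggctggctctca

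H2-Aa and H2-Eb1 both held GCAAC followed by ATTGG, with 28 bases between them in H2-Aa and 27 in H2-Eb1. A pair with a gap of 25 to 40 bases, on either strand, occurred in 0.426% of the 27025 promoter windows of the table. AANNGAAA lay in the windows of H2-K1, H2-D1 and B2m, and in 13.3% of all windows. ATTGG alone occurred in 26.4% of windows, including those of H2-K1, H2-D1 and B2m, and no searched motif was in the Tap1 window. The motifs were chosen after these promoters had been seen, and a match only describes the letters of the reference strain. GCAAC was the only X-box form searched, so its absence from a window does not show that an X box is absent.

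**Figure D1:**
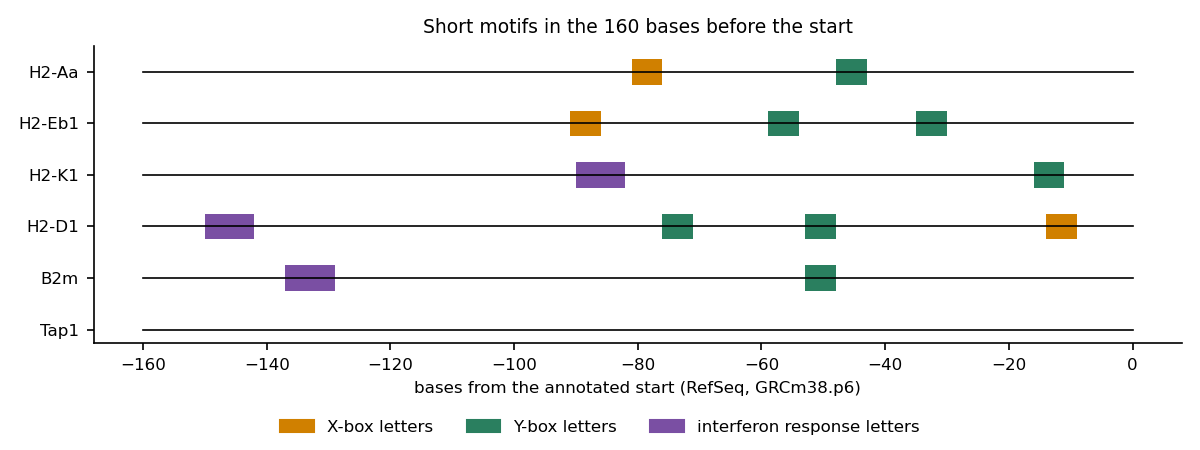
Positions of the short motifs, in bases from the annotated start (horizontal axis), in the windows of 6 members (rows). Orange blocks are the X-box letters, green blocks the Y-box letters and purple blocks the interferon response letters; only H2-Aa and H2-Eb1 have an orange block followed by a green one, 28 and 27 bases apart.

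Most class II RNA lay in a few immune cells. Microglia or macrophages held 80.7% of the 228 class II UMIs of kept db/db cells and 74.2% of the 755 of kept wild-type cells, although they were 0.529% and 0.587% of the cells. Summed over the 4 genes, their level was 764 CPM (657 to 882) in the db/db library, against 2679.9 CPM (2462 to 2911) in the wild-type library. Rods were at 0.727 CPM in the db/db library and 2.02 CPM in the wild-type library. H2-Aa, H2-Eb1 and Cd74 had 0 UMIs in Muller glia and amacrine cells of both libraries.

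**Figure D2:**
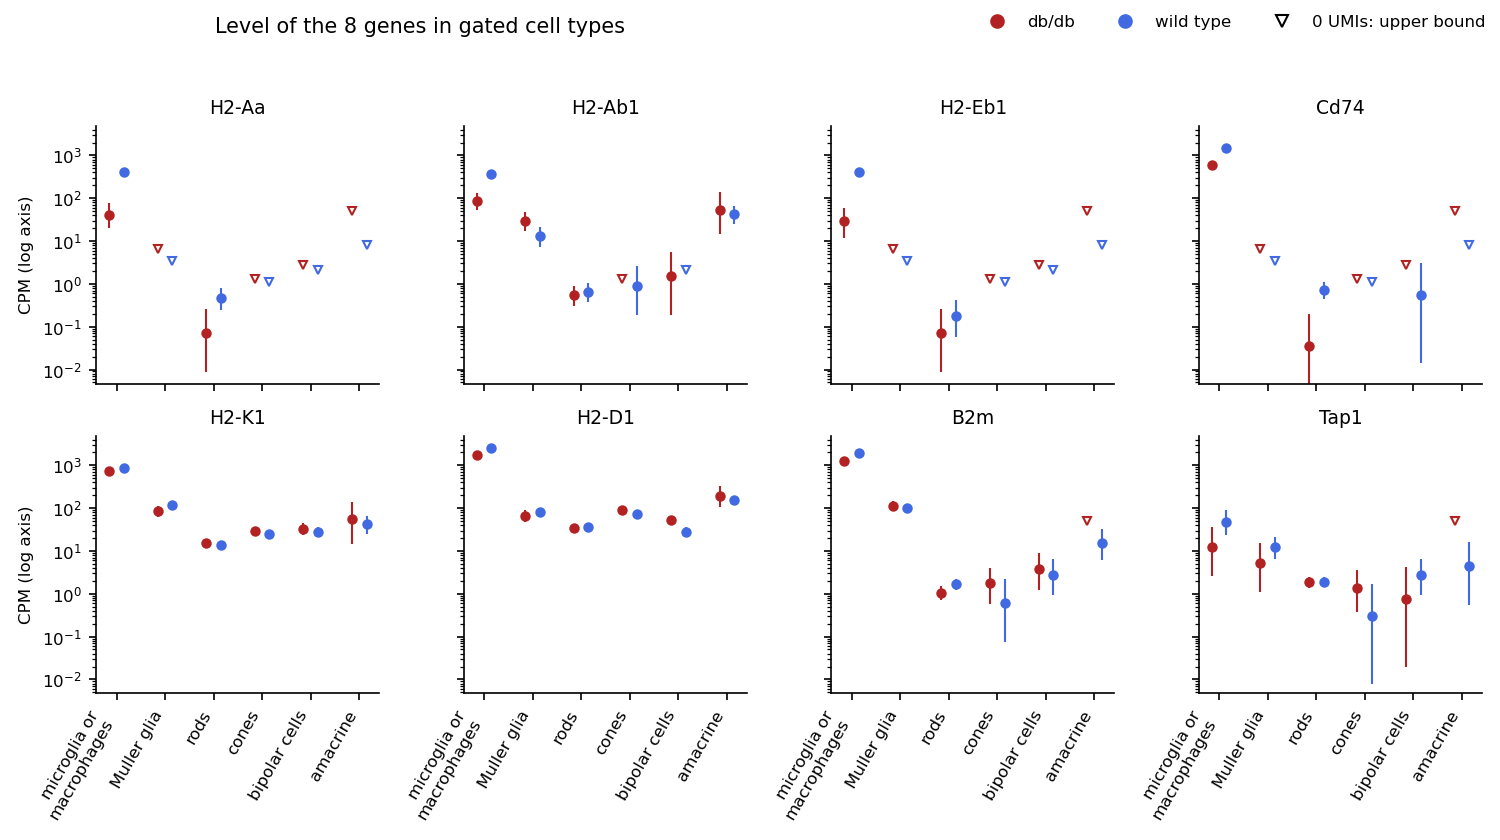
Level of each of the 8 genes in 6 gated cell types, in CPM on a log axis, with db/db points (red) left of wild-type points (blue) and exact 95% intervals; open triangles are the upper interval bound where no UMI was counted. The class II genes stand in microglia or macrophages, H2-Ab1 is also present in Muller glia and amacrine cells, and B2m is about as high as H2-D1 in the 2 glial types but far below it in rods, cones and bipolar cells.

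The alpha chain H2-Aa, which pairs with H2-Ab1, had 10 UMIs in db/db microglia or macrophages and 84 in wild-type ones, or 41.5 and 402 CPM. Its beta chain H2-Ab1 had 21 and 77 UMIs, or 87.2 and 368 CPM. H2-Eb1, the beta chain of the second class II molecule, had 7 and 84 UMIs, or 29.1 and 402 CPM. Cd74 (ENSMUSG00000024610, chromosome 18, 60803848 to 60812652, plus strand), the invariant chain that guides newly made class II molecules, was the most abundant, with 146 and 315 UMIs, or 606 and 1507 CPM. All 4 were lower in the db/db sum, with log2 ratios of db/db to wild type of -3.28 (-4.39 to -2.33) for H2-Aa, -2.08 (-2.85 to -1.37) for H2-Ab1, -3.79 (-5.15 to -2.68) for H2-Eb1 and -1.31 (-1.61 to -1.03) for Cd74. The sum was at -1.81 (-2.06 to -1.57). By the size rule used here, a log2 ratio of at least 1 in either direction among genes with at least 50 UMIs, 4 of the 7 measured members passed, all 4 lower in db/db. The background was 3.54% of the 1412 genes measured in this cell type past the rule, and 1.91% on the lower side. The median log2 ratio was -1.31 over the 7 members and -0.04 over all measured genes. H2-Aa, H2-Ab1 and H2-Eb1, with 10, 21 and 7 db/db UMIs, reached 50 UMIs only through the wild-type library. The filter thus favoured a lower db/db ratio for them, so the comparison with the background is description only.

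That difference rested on 2 wild-type cells. One held 321 class II UMIs among its 6778 UMIs and the other 125 among 1968, together 446 of the 560 counted in wild-type microglia or macrophages. No other cell in this gate had more than 28 in either library, and the highest db/db cell had 18. Without those 2 cells the class II sum was 184 UMIs in 58 db/db cells, unchanged at 764 CPM, and 114 UMIs in 58 wild-type cells, or 569 CPM (470 to 684). The log2 ratio then changed sign to 0.42 (0.08 to 0.77). H2-Aa and H2-Eb1 were left with 10 and 7 UMIs in db/db cells and 1 UMI each in wild-type cells, with ratios of 3.06 (0.24 to 8.49) and 2.54 (-0.42 to 8.03). H2-Ab1 was at 0.80 (-0.35 to 2.05) and Cd74 at 0.25 (-0.12 to 0.63). H2-Aa, H2-Eb1 and H2-Ab1 then had fewer than the 50 UMIs that the size rule asks for and were no longer measured, and Cd74 was measured and under the fold. Leaving the 2 cells out was chosen after the values per cell had been seen. It took cells from the wild-type library only, and the richest db/db cells, with 18 and 16 class II UMIs, stayed in. Such a removal can only raise the ratio, so the interval above 0 does not compare libraries trimmed alike.

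**Figure D3:**
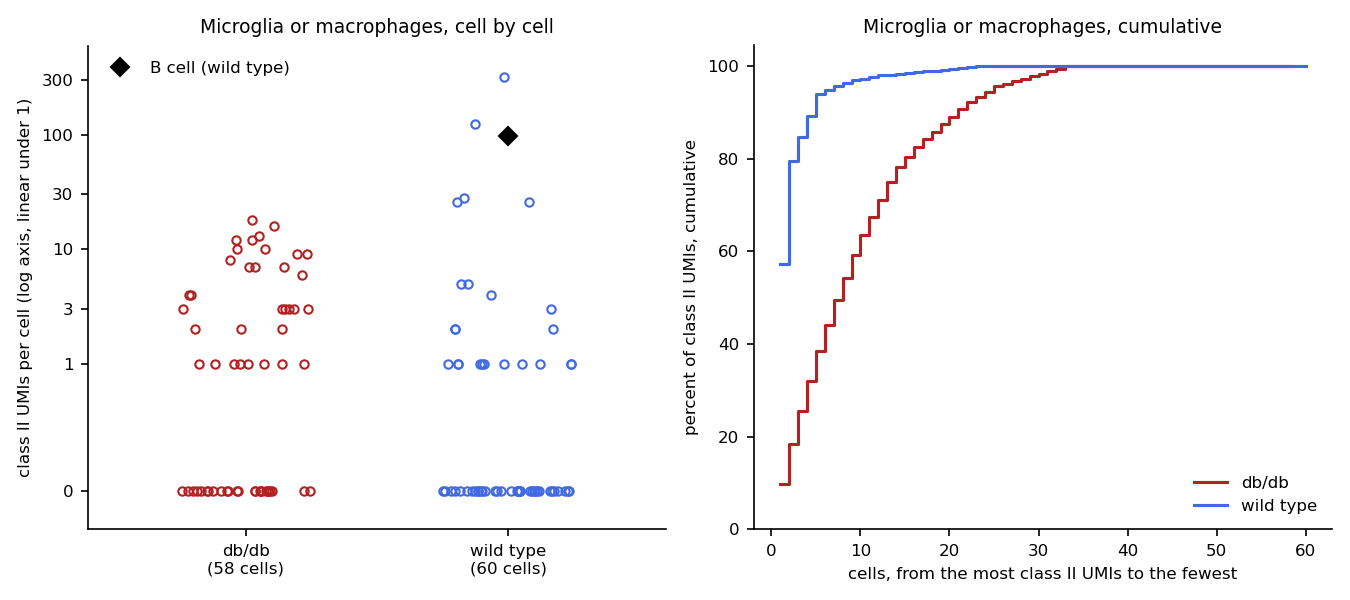
Left, class II UMIs of each gated microglia or macrophage (open circles; vertical axis logarithmic above 1) in the db/db and wild-type libraries, with the wild-type B cell as a black diamond. Right, cumulative percent of these UMIs with cells ranked from most to fewest: 2 of 60 wild-type cells hold 446 of 560 UMIs, while the 184 db/db UMIs are spread over 33 of 58 cells.

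Both cells carried all 4 class II genes together with macrophage genes. The cell with 321 UMIs had 50 of H2-Aa, 59 of H2-Ab1, 61 of H2-Eb1 and 151 of Cd74. It showed 15 of the 18 listed microglia or macrophage markers, among them the complement genes C1qa, C1qb and C1qc with 15, 20 and 12 UMIs. Of genes used to tell border macrophages from microglia, it had 10 UMIs of Ms4a7 and 1 of Pf4, and of homeostatic microglia genes 1 of P2ry12, 2 of Tmem119 and 1 of Siglech. The cell with 125 UMIs had 11 of the 18 markers, 15 UMIs of Tyrobp, an adaptor of myeloid receptors, and 1 UMI each of Ms4a7, Pf4 and Siglech. Its B cell markers were 2 UMIs of Ighm. Monocyte and T cell markers were at 0 in both cells, and dendritic cell markers at 1 UMI, of Itgax, in the first. Their class I counts were 25 and 14 UMIs, beside medians per gated cell of 14 in the db/db library and 9 in the wild-type library.

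Another wild-type cell of high class II content was the only one in the B cell gate, where the db/db library had 0 of 10963 cells (upper bound 0.0336%). It showed all 7 listed B cell markers, including 7 UMIs of Cd79a and 15 of Igkc, and held 98 class II UMIs, of which 40 were Cd74. The 3 richest wild-type cells thus held 544 of the 755 class II UMIs of the library, or 72.1%. The 3 richest db/db cells held 47 of 228, or 20.6%. The 2 db/db cells in the T cell gate carried class I RNA, with 27 UMIs of H2-D1, 23 of B2m and 8 of H2-K1, and 0 class II UMIs.

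The share of cells that carried class II RNA ran the other way from the sum. At least 1 class II UMI was found in 33 of 58 db/db microglia or macrophages, 56.9% (43.2 to 69.8), and in 23 of 60 wild-type ones, 38.3% (26.1 to 51.8), so the intervals overlapped. With at least 2 UMIs the numbers were 25 and 12 cells, and with at least 2 different class II genes 14 and 8. All 4 genes were seen in 1 db/db and 2 wild-type cells. The db/db cells were deeper, and after thinning each cell to 1000 UMIs the carriers were 15 of 43 db/db cells (34.9%) and 11 of 44 wild-type cells (25%). Among gated cells at or under the median share of rod RNA the shares were 65.5% in db/db and 63.3% in wild type. The part of depth and of rod RNA in the difference was not tested further.

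In most carriers Cd74 was counted with few or no UMIs of the chains it guides. Cd74 was found in 31 db/db and 18 wild-type microglia or macrophages, and in 17 and 11 of them no UMI of H2-Aa, H2-Ab1 or H2-Eb1 was counted. Several of these cells in each library had only 1 class II UMI, so a partner could not have been seen in them. Cd74 made up 79.3% (72.8 to 85.0) of class II UMIs in the db/db cells and 89.5% (82.3 to 94.4) in the wild-type cells other than the richest 2. In those 2 cells it was 47.8% (43.0 to 52.5), and in the B cell 40.8% (31.0 to 51.2). Both H2-Aa and H2-Eb1 were present in 2 db/db cells, with 16 and 10 class II UMIs, and in 2 wild-type cells, those with 321 and 125.

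Markers of other myeloid cells were scarce in the gate but not equal. The 7 border macrophage markers summed to 36 UMIs in 8 of 58 db/db cells, 149 CPM (105 to 207), and to 14 UMIs in 3 of 60 wild-type cells, 67.0 CPM (36.6 to 112), of which 11 lay in the cell with 321 class II UMIs. The 5 monocyte markers had 45 UMIs, all in 1 db/db cell, and 0 in wild type. The 8 dendritic cell markers had 8 and 12 UMIs, the 7 B cell markers 20 and 22, and the 8 T cell markers 0 and 1. The 6 homeostatic microglia markers were at 2557 CPM (2359 to 2767) in db/db and 2081.7 CPM (1891 to 2287) in wild type. Among the 34 db/db and 30 wild-type cells with at least 3 of the 6 homeostatic markers, the class II level was 620.4 CPM in db/db and 2633 CPM in wild type. Among the other 24 and 30 cells it was 1431 and 2845 CPM. Each of the 2 rich wild-type cells fell in a different one of these subsets. The part of cell make-up in the class II difference was not tested.

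In Muller glia and amacrine cells, H2-Ab1 appeared without its partners. Muller glia had 17 UMIs of H2-Ab1 in 14 of 116 db/db cells and 14 UMIs in 14 of 212 wild-type cells, or 29.6 and 13.0 CPM, with no UMI of H2-Aa, H2-Eb1 or Cd74 in either. Amacrine cells, inhibitory interneurons, had 4 UMIs in 3 of 13 db/db cells and 19 UMIs in 13 of 67 wild-type cells, again of H2-Ab1 alone. In microglia or macrophages H2-Ab1 came with more Cd74, 21 UMIs beside 146 in db/db and 77 beside 315 in wild type. H2-Ab1 also led in db/db rods, with 15 UMIs beside 2 of H2-Aa, 2 of H2-Eb1 and 1 of Cd74. Wild-type rods had 18 UMIs of it beside 13, 5 and 20. These were H2-Ab1 levels of 0.545 CPM in db/db rods and 0.649 CPM in wild-type rods. H2-Ab1 with few partner UMIs was thus also seen in db/db rods, at a far lower level than in Muller glia. In wild-type rods the partner UMIs were not few. Cones, of similar depth (medians of 4820 and 4631 UMIs, against 5240 and 4942 in Muller glia), had H2-Ab1 in 0 of 515 db/db cells, with an upper bound of 0.714% on cells with a UMI, and in 3 of 599 wild-type cells. Muller glia carried it in 12.1% (6.76 to 19.4) of db/db and 6.60% (3.66 to 10.8) of wild-type cells. The log2 ratio in Muller glia was 1.19 (0.08 to 2.32), on fewer than the 50 UMIs that the size rule asks for. No gene overlaps H2-Ab1 in the annotation, and none of the 451 stretches of 50 bases at its 3' end occurs in another gene.

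In rods, at least 1 class II UMI was counted in 18 of 9419 db/db cells (0.191%) and 33 of 8216 wild-type cells (0.402%), at medians of 1984 and 2262 UMIs. These shares served as a reference for other cells, but not at like depth, as Muller glia had medians of 5240 and 4942 UMIs. Cd74 made up 5% (0.127 to 24.9) of the 20 class II UMIs in db/db rods and 79.3% in db/db microglia or macrophages. The gap was smaller in wild type, with 35.7% (23.4 to 49.6) in rods and 56.25% (52.0 to 60.4) in microglia or macrophages. The source of the class II UMIs in rods was not tested. One wild-type cell in the rod gate held 22 class II UMIs of all 4 genes, 11 of them Cd74, along with 4 microglia or macrophage markers. It supplied 11 of the 20 Cd74 UMIs of wild-type rods, where db/db rods had 1. Over all kept cells, carriers numbered 71 in db/db and 92 in wild type, and those with at least 2 different class II genes 14 and 11.

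Class I RNA was counted in all 6 types of neuron, glia and microglia plotted above, and was highest among them in microglia or macrophages. The sum of H2-K1, H2-D1, B2m and Tap1 there was 911 UMIs or 3782 CPM (3540.0 to 4035) in db/db and 1115 UMIs or 5336 CPM (5027 to 5658) in wild type. These levels were 71.3 and 97.6 times those of rods of the same library. H2-D1, a classical heavy chain, led with 1748 and 2527 CPM. B2m, the light chain shared by all class I molecules, had 1266 and 1919 CPM, and H2-K1, the other classical heavy chain, 755 and 842 CPM. Tap1, a subunit of the peptide transporter of the endoplasmic reticulum, was low, with 3 and 10 UMIs.

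Class I RNA was lower in db/db microglia or macrophages by less than the size rule asks for. The sum had a log2 ratio of -0.50 (-0.62 to -0.37), with H2-D1 at -0.53 (-0.72 to -0.34) and B2m at -0.60 (-0.82 to -0.38), while the interval of H2-K1, at -0.16 (-0.46 to 0.15), included 0. None of these passed the size rule. The 2 cells of each library with the most class I UMIs held 54 and 54 UMIs in db/db and 87 and 80 in wild type, and without them the ratio was -0.44 (-0.58 to -0.31), an alternative chosen after seeing the data. It was -0.52 (-0.66 to -0.38) in cells with at least 3 homeostatic markers and -0.49 (-0.82 to -0.16) in the rest. After thinning to 1000 UMIs per cell, the median was 3 class I UMIs (quartiles 2 and 4.5) in 43 db/db cells and 5 (quartiles 2 and 7) in 44 wild-type cells. The highest thinned cells had 8 and 15. At least 1 class I UMI remained in 97.7% of these db/db cells and 88.6% of the wild-type cells. Before thinning, the share was 93.1% (83.3 to 98.1) of 58 db/db cells and 95% (86.1 to 99.0) of 60 wild-type cells. The direction of the share thus differed before and after thinning. The 2 thinned distributions of class I UMIs overlapped widely.

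**Figure D4:**
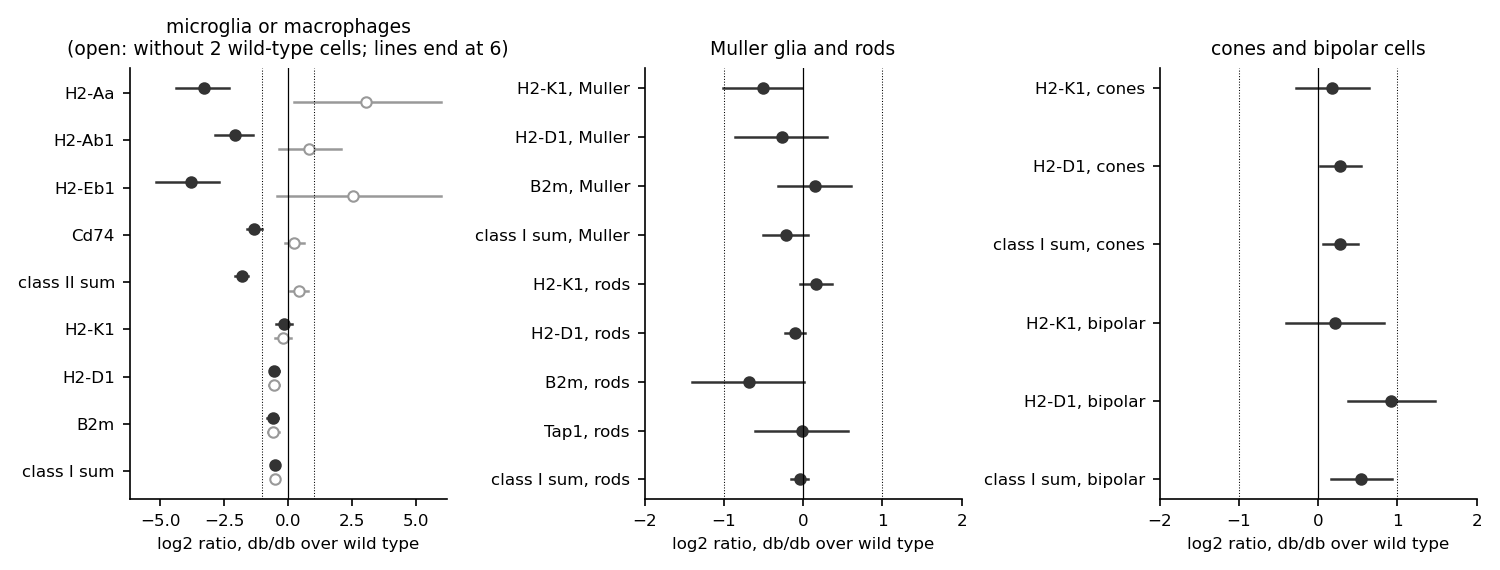
Log2 ratios of db/db over wild type with exact 95% intervals, in microglia or macrophages (left, where lines end at 6), Muller glia and rods (centre) and cones and bipolar cells (right). Filled points are members and sums with at least 50 UMIs, and dotted lines mark -1 and 1. Open circles leave out the 2 wild-type cells with most class II UMIs, and those of H2-Aa, H2-Ab1 and H2-Eb1 rest on fewer than 50 UMIs. The class II ratios change sign without the 2 cells (sum at -1.81 with them and 0.42 without), and the class I sum is at -0.50 with them and -0.51 without.

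Among the other glia and neurons, Muller glia had B2m at about the level of the heavy chains. H2-K1 had 48 UMIs in db/db and 128 in wild type, or 83.6 and 119 CPM, with a log2 ratio of -0.51 (-1.02 to -0.02). H2-D1 had 38 and 86 UMIs, or 66.2 and 79.8 CPM, at -0.27 (-0.86 to 0.30). B2m had 65 and 110 UMIs, or 113 and 102 CPM, at 0.15 (-0.32 to 0.61). The class I sum, 268 and 313 CPM, was at -0.22 (-0.51 to 0.06), within counting error. No measured member passed the size rule in Muller glia, where 1.7% of 5824 measured genes did.

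Rods held more class I UMIs in total than any other cell type by their number, 46.1% of the class I UMIs of kept db/db cells and 41.9% of those of wild-type cells, but at a low level per cell. H2-D1 was at 34.6 CPM in db/db and 37.1 CPM in wild type, H2-K1 at 15.6 and 14.0 CPM, Tap1 at 1.85 and 1.88 CPM and B2m at 1.05 and 1.69 CPM. The sum was 53.0 and 54.7 CPM, with a log2 ratio of -0.04 (-0.15 to 0.06). Of the 4 members measured in rods 0 passed the size rule, against 0.905% of 12149 measured genes.

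In cones and bipolar cells H2-D1 was higher in the summed counts of the db/db library. In cones H2-D1 had 258 UMIs in db/db and 244 in wild type, or 90.0 and 74.3 CPM, a log2 ratio of 0.28 (0.02 to 0.53), and the class I sum was 122 and 101 CPM. In bipolar cells H2-D1 had 70 and 50 UMIs, or 53.1 and 28.2 CPM, at 0.91 (0.37 to 1.47). After thinning to 1000 UMIs per cell, H2-D1 had a mean of 0.0356 UMIs in 365 db/db bipolar cells and 0.0402 in 473 wild-type ones. These means had the other direction but rested on 13 and 18 cells with a UMI, and no interval was computed for them. Depth was already close before thinning, with medians of 3275 and 3363.5 UMIs per bipolar cell. In cones the thinned means were 0.105 and 0.100 UMIs. In bipolar cells H2-K1, at 32.6 and 28.2 CPM, was at 0.21 (-0.41 to 0.83). The size rule was passed by 0 of 2 measured members in either type, and by 0.62% of 9026 genes in cones and 1.05% of 8033 in bipolar cells. In amacrine cells H2-D1 was at 191 CPM (104 to 320) in db/db, on 13 cells, and 153 CPM (119 to 194) in wild type, the highest of the neurons in both libraries.

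The share of H2-D1 beside B2m was higher in neurons than in glia or microglia in both libraries. H2-D1 made up 97.04% of the UMIs of H2-D1 and B2m in db/db rods and 95.6% in wild-type rods, and 98.1% and 99.2% in cones. It was 58.0% (54.3 to 61.6) and 56.8% (53.6 to 60.05) in microglia or macrophages, and 36.9% (27.6 to 47.0) and 43.9% (36.8 to 51.1) in Muller glia. The intervals of the libraries overlapped in each of these cell types. H2-K1 made up 55.8% of the UMIs of both heavy chains in db/db Muller glia and 59.8% in wild-type ones, against 31.1% and 27.3% in rods and 30.2% and 25% in microglia or macrophages. In bipolar cells it was 38.1% (29.1 to 47.7) in db/db and 50% (39.8 to 60.2) in wild type, and the wild-type interval overlapped that of Muller glia. Erythroid cells had 3 class I UMIs in 43 db/db cells and 3 in 24 wild-type cells, or 9.28 and 26.9 CPM. Globin genes filled most of the UMIs there, with Hbb-bs at 445298 CPM and Hba-a1 at 196172 CPM over both libraries. That lowers the CPM of every other gene in these cells, so their values are not on the same footing as those of rods.

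**Figure D5:**
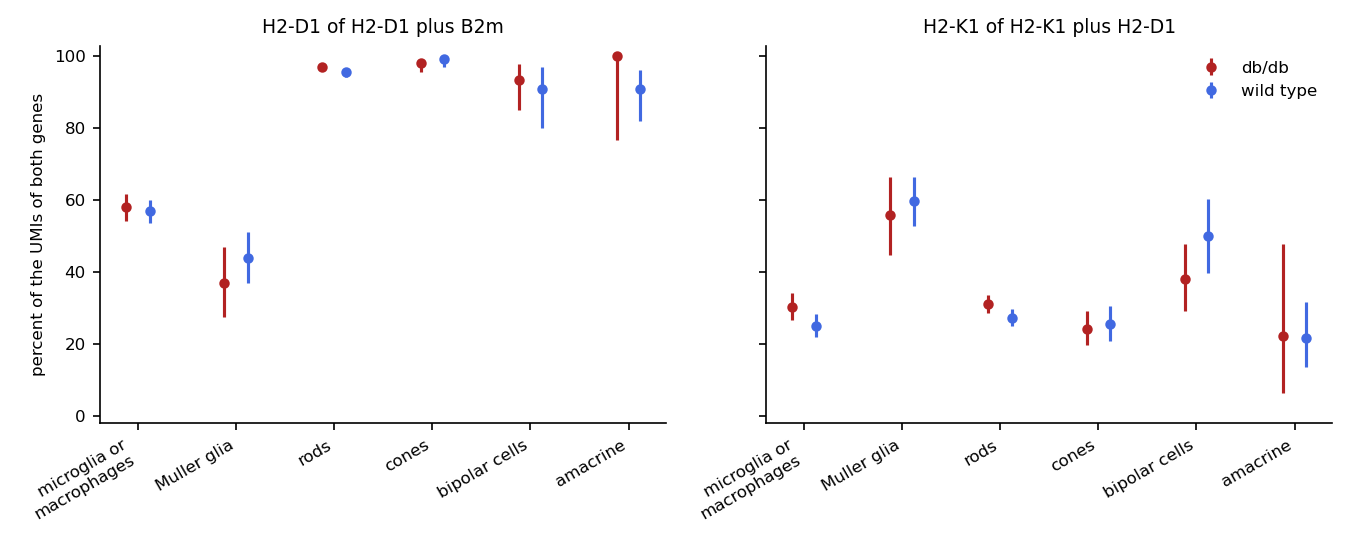
Percent of UMIs from H2-D1 among those of H2-D1 and B2m (left) and from H2-K1 among those of H2-K1 and H2-D1 (right) in 6 cell types, db/db (red) left of wild type (blue), with exact 95% intervals. H2-D1 is above 90% of the first pair in rods, cones, bipolar cells and amacrine cells and under 60% in microglia or macrophages and Muller glia.

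Genes on the opposite strand overlap 3 of the members. B2m (ENSMUSG00000060802, chromosome 2, 122147686 to 122153083, plus strand) lies within Patl2 on the opposite strand, Tap1 overlaps Psmb9, and H2-Eb1 the antisense gene Gm20513. Psmb9 and Gm20513 are on the minus strand, so their highest coordinates are their 5' ends. For Psmb9 that is 34187764, near the start of Tap1 at 34187553. For Gm20513 it is 34308070, in the 5' part of H2-Eb1. The counted 3' ends of Tap1 and H2-Eb1 lie outside these overlaps. Whether counting used the strand is not stated in these sources, and any effect of the overlaps on the counts was not tested. At the 3' end of H2-D1, 9.53% of the stretches of 50 bases also occur in transcripts of 80 other genes, and 0.443% of those of H2-K1 occur in H2-D1. The share of UMIs that this touches was not tested.

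No gene of the class II loading machinery passed the size rule in microglia or macrophages. Of 15 listed class II machinery genes in the count table, 6 were measured, with a median log2 ratio of 0.13. Over all 1412 measured genes the median was -0.04, and 3.54% passed the rule. Ctss, the protease that removes the invariant chain and also a gate marker here, was at 3898 CPM in db/db and 5063 CPM in wild type, at -0.38 (-0.51 to -0.25). Lgmn, another endosomal protease, was at 1428 and 1311 CPM. H2-DMa, a chain of the peptide exchange factor H2-DM, had 44 and 36 UMIs, or 183 and 172 CPM. In rods March1, a ubiquitin ligase that removes class II molecules from the surface, was at 956 and 858 CPM, and Lgmn at 133 and 132 CPM. In Muller glia 2 of the listed genes were measured, March1 at 0.52 (0.13 to 0.90) and Lgmn at -0.19 (-0.83 to 0.41).

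Of the 13 class I machinery genes, 5 were measured in microglia or macrophages, 7 in Muller glia, 10 in rods, 8 in cones and 7 in bipolar cells. The size rule was passed by 0 of them in any type. Over all measured genes, the share past the rule ran from 0.62% in cones to 3.54% in microglia or macrophages. In rods the intervals of 6 of the 10 lay below 0 and that of 1 above it, where 14.5% and 21.2% of all 12149 measured genes did so. The median ratio was -0.18 over the 10 and 0.02 over all measured genes. The chaperones Calr and Canx, which take part in class I assembly, were at 234 and 164 CPM in db/db rods and 288 and 204 CPM in wild-type rods. Their ratios in rods were -0.30 (-0.34 to -0.25) and -0.32 (-0.37 to -0.26). In microglia or macrophages Calr was at 0.24 (-0.18 to 0.67) and Pdia3, a disulfide isomerase of the peptide-loading complex, at -0.12 (-0.63 to 0.39). Among the other class I genes, H2-Q4 was measured in 4 of the 5 cell types, at -0.49 (-1.11 to 0.13) in microglia or macrophages and 0.67 (0.17 to 1.19) in rods. H2-Q6 in microglia or macrophages was at -0.75 (-1.53 to 0.00). In rods Hfe, a class I-like regulator of iron uptake, was at 22.3 CPM in db/db and 16.9 CPM in wild type, a ratio of 0.40 (0.23 to 0.58).

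Interferon signalling genes, which act upstream of the MHC genes, had different ratios in different cell types. Irf1, an interferon-induced factor that activates class I promoters, had 67 UMIs in db/db microglia or macrophages and 30 in wild-type ones, or 278 and 144 CPM, at 0.95 (0.31 to 1.63). In Muller glia it had 122 and 445 UMIs, or 213 and 413 CPM, at -0.96 (-1.26 to -0.67), and in rods 15 and 37 UMIs, at -1.29 (-2.26 to -0.39). Irf8, a factor of the macrophage lineage, was at 0.62 (0.17 to 1.08) in microglia or macrophages. Irf9, which joins STAT proteins in the type I interferon response, had 11 UMIs in db/db and 64 in wild-type Muller glia, or 19.2 and 59.4 CPM, at -1.63 (-2.70 to -0.70). Over the list, 1 of 8 measured genes passed the size rule in Muller glia and 1 of 13 in rods, both lower in db/db. In the other 3 cell types 0 passed. Over all measured genes, 1.7% passed in Muller glia, 0.905% in rods, 3.54% in microglia or macrophages, 0.62% in cones and 1.05% in bipolar cells. The medians were -0.32 in Muller glia and 0.30 in microglia or macrophages, against 0.01 and -0.04 over all measured genes.

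The genes whose levels ran most like the class II sum over the 16 combinations of cell type and library were Ly6e, Marcksl1, H2-DMa, Arl4c and Plxdc2, with Pearson r of log2(CPM + 1) of 0.98, 0.93, 0.93, 0.92 and 0.92. For the class I sum they included Grn, Tpm3, Mcl1 and Rab8b, at 0.95, 0.92, 0.91 and 0.90. In all, 10237 genes were compared. The points share 2 libraries, differ in depth and are dominated by the contrast of microglia or macrophages with other cells, so the values describe likeness only.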

How the data were processed

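The authors deposited raw counts: UMIs per gene and cell barcode, written by Cell Ranger 6.0.1 per the file headers, with the mm10 genome named in the submitters' processing notes. The barcode and gene files hold names only. The sources used here give no annotation release, no rule for calling cells and no strand setting. The libraries were 10x Genomics 3' v3.1, per the labels' protocols, with 11083 db/db and 10308 wild-type barcodes.

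Cells with at least 200 genes and at most 20% mitochondrial UMIs were kept. A cell passed a gate when it showed a minimum number of different markers of a type (4 for microglia or macrophages, 6 for Muller glia, 5 for rods) and a minimum share of UMIs from them (0.25%, 1% and 3%). Cells in more than 1 gate other than the rod gate were set apart, and rods were cells in no other gate. The gate thresholds were set after marker distributions had been seen. Members, lists and markers were chosen with earlier results of these data known. Doublets were not removed, since Scrublet (scanpy 1.11.5) marked 2 db/db and 0 wild-type cells, too few for a caller that worked; an alternative left out the 8% with the highest scores.

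Counts were summed per gate and library and scaled to 1000000. Sums have exact Poisson, shares Clopper-Pearson and ratios conditional binomial intervals (scipy 1.17.1). In a ratio a count of 0 was set to 3. With 1 library per genotype no model was fitted across genes. The genes named are the 8 members, and of each list those past the fold, otherwise the 2 with the highest level; Irf1, Irf8 and others named beside them were chosen after their values were seen. On simulated counts the ratios and intervals were checked. TMM factors came from edgeR 4.0.16. Positions are from GENCODE M21 (GRCm38), which held 32235 of the 32285 gene IDs, and promoter sequences from RefSeq GRCm38.p6, which matched 6 of the 8 members as used here. H2-Ea, the partner of H2-Eb1, was not analysed here, and 1 gene that the rule for likeness covers is not reported here.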

Additional observations from a re-analysis of the deposited data

How the results depend on the processing

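The lower class II sum of db/db microglia or macrophages depended on 2 wild-type cells. Its log2 ratio of -1.81 became 0.42 without them, with H2-Aa at 3.06, H2-Ab1 at 0.80, H2-Eb1 at 2.54 and Cd74 at 0.25. No db/db cell was left out in that alternative. The number of members past the size rule was then 0, because H2-Aa, H2-Ab1 and H2-Eb1 had under 50 UMIs and were no longer measured, and Cd74 was under the fold. With equal weight per cell it was -0.67 and 1 member stayed past the fold. It was -2.20 with cell types from clusters, -2.12 with at least 500 genes per cell and -2.59 without gated cells above the median share of rod marker RNA. Thinning to 1000 UMIs left 2 members past the fold, carriers of 34.9% in db/db and 25% in wild type, 24 carriers in each library over all cells, and a class I ratio in rods of 0.11. A minimum of 10 UMIs put 9 member and cell type combinations past the fold over the 5 cell types, against 4. Carriers with at least 2 class II UMIs were 43.1% in db/db and 20% in wild type, and with at least 2 different class II genes 24.1% and 13.3%. Without the cells above the median rod share the wild-type share was 63.3% and the class I ratio in microglia or macrophages -0.69. The other alternatives moved no main value beyond its interval or count limit, and the class I sum in microglia or macrophages stayed below 0 in all that were run. The cause of these shifts was not tested, beyond the make-up of each alternative. No paired analysis was possible because each genotype had 1 library, and no replicate could be left out. The class II values rest on 184 UMIs in 58 db/db cells and 560 in 60 wild-type cells.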
